A study of Mus musculus with 20 samples.

Results

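The genes described here encode the cytoplasmic side of the apical cell surface and the complexes that set it apart from the rest of the membrane. 10 genes were chosen by symbol from the 30265 genes in the count tables. They were the ezrin-radixin-moesin (ERM) genes Ezr, Msn and Rdx, the ERM scaffold gene Slc9a3r1 (also named Nherf1), the actin-bundling gene Lcp1, and the polarity complex genes Pard3, Pard6b, Prkci, Prkcz and Mpp7. All 10 were found in both tables and passed the filter on low counts in both experiments.

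ERM proteins tie cortical actin filaments to the plasma membrane, and Nherf1 is a PDZ-domain scaffold that joins them to membrane proteins in microvilli. Par3, Par6 and atypical protein kinase C form a complex that marks the apical pole and the junctions of epithelial cells. In the mouse embryo this machinery gathers at the outer surface of the blastomeres at compaction, and the outer cells that inherit the apical domain go on to form the trophectoderm, the outer epithelium of the blastocyst.

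RNA was measured in 20 libraries from 2 experiments on Klf5, a zinc-finger transcription factor of the Krüppel-like family. 6 single E4.5 embryos (late blastocysts) had received Klf5 siRNA and 10 had received scramble siRNA, and per the labels all came from C57BL/5J mice and were cultured in KSOM with BSA. 2 libraries came from embryonic stem cells (ESCs, pluripotent cultures taken from the inner cell mass) that overexpressed Klf5 and 2 from ESCs overexpressing GFP, all of C57BL/6J origin and grown with LIF on irradiated mouse embryonic fibroblast (MEF) feeders. Whether the ESC replicates were separate cultures is not stated, so p-values there cover the spread among these libraries alone, and that spread may be technical. The embryo comparison asks which transcripts differ when Klf5 is lowered and the ESC comparison which differ when it is raised.

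Library totals were 14946000 to 23367500 counts in Klf5 siRNA embryos and 14701600 to 24939700 in scramble embryos. They were 34643500 and 37482700 counts in Klf5 ESCs and 26775600 and 36915800 in GFP ESCs. Klf5 itself, in counts scaled to a common library size (CPM), stood at 543, 111, 195, 80.8, 117 and 292 in Klf5 siRNA embryos 1 to 6, against 382 to 592 in scramble embryos. Klf5 siRNA embryo 1 therefore lay inside the scramble range. The fitted difference was 2.10-fold lower (edgeR quasi-likelihood test, adjusted p = 0.0273). This call was lost without Klf5 siRNA embryo 2, 3, 4 or 5 (adjusted p = 0.0509 to 0.0672). Over all 29 alternative settings it held under 20, with log2 fold changes of -1.56 to -0.71. In ESCs Klf5 had 942 and 882 CPM in Klf5 cells and 80.5 and 70.8 CPM in GFP cells (12.1-fold higher, adjusted p = 0.000323). The mitochondrial share of counts was 2.45 to 10.3% in Klf5 siRNA embryos and 4.34 to 18.5% in scramble embryos. The labels number the scramble libraries before the Klf5 siRNA libraries, so library order and siRNA cannot be told apart.

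In embryos 8 of the 10 genes fell after Klf5 siRNA and none passed the test in the other direction. The 8 were Ezr, Msn, Slc9a3r1, Lcp1, Pard3, Pard6b, Prkci and Mpp7, between 1.71-fold and 5.91-fold lower. Radixin (Rdx) and the second atypical kinase gene Prkcz did not pass. Over all 12385 genes tested, 19.8% passed an adjusted p of 0.05 in either direction, 12% as higher and 7.74% as lower. The median log2 fold change was -1.47 over the 10 genes and -0.01 over all genes tested. In 6 of the 10 every Klf5 siRNA embryo lay below every scramble embryo, an arrangement held by 1.91% of the genes tested. The reverse arrangement held for none of the 10 and for 2.91% of the genes tested, which makes 4.81% in either direction. These 6 were Ezr, Msn, Slc9a3r1, Lcp1, Prkci and Mpp7. The 10 genes were chosen with earlier results of these data known, so these shares are a description and not a test of the set. A whole embryo was read in each library, so fewer cells of a type and less RNA per cell cannot be told apart in any of these values. Without Klf5 siRNA embryo 1, whose Klf5 was not low, 8 of the 10 again passed the test.

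**Figure D1:**
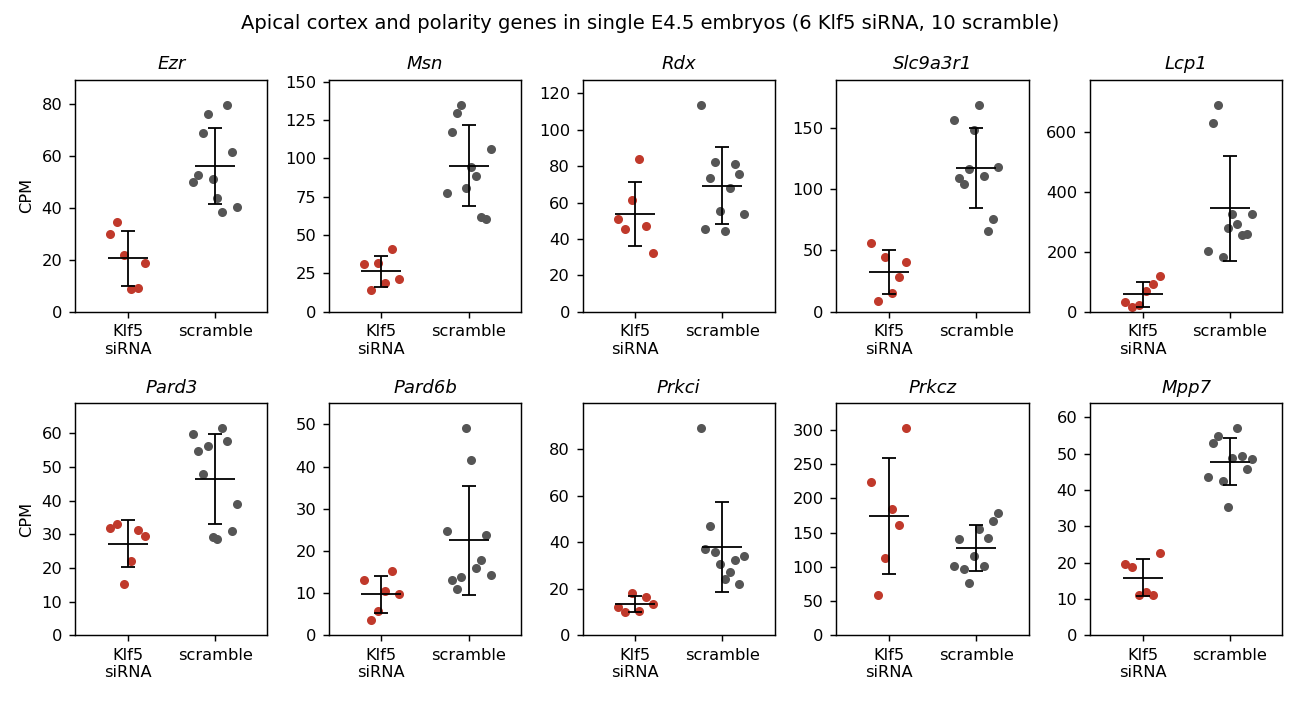
Each panel plots 1 gene in CPM (vertical axis, linear, from 0) for the 6 Klf5 siRNA embryos on the left and the 10 scramble embryos on the right, with 1 point per embryo and lines at the mean ± SD. In Ezr, Msn, Slc9a3r1, Lcp1, Prkci and Mpp7 the points of the groups do not overlap, while in Rdx, Pard3, Pard6b and Prkcz they do.

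Among the ERM genes, ezrin (Ezr, ENSMUSG00000052397, chr17:6738041-6782784, minus strand) is the form typical of epithelial microvilli. Its lowest, median and highest values were 8.84, 20.2 and 34.5 CPM in Klf5 siRNA embryos, and 38.5, 51.8 and 79.7 CPM in scramble embryos. The groups did not overlap, and Klf5 siRNA embryos 4 and 5 were the lowest of all. The means were 20.5 ± 10.5 CPM in Klf5 siRNA embryos and 56.2 ± 14.7 CPM in scramble embryos (SD, n = 6 and n = 10). The fitted log2 fold change was -1.46 ± 0.31 (SE, edgeR quasi-likelihood test with Benjamini-Hochberg adjustment over all genes tested, adjusted p = 0.00309).

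Moesin (Msn, ENSMUSG00000031207, chrX:96096042-96168552, plus strand) is the family member on the X chromosome. It ranged from 13.8 to 41.1 CPM with a median of 26.1 in Klf5 siRNA embryos, and from 60.6 to 135 CPM with a median of 91.5 in scramble embryos. The groups did not overlap. Msn had a fitted log2 fold change of -1.85 ± 0.28 (edgeR, adjusted p = 0.00022). Since Msn is X-linked, the embryos were also set apart by their summed level of Y-linked genes, which was at least 89.4 CPM or at most 8.59 CPM in every embryo. Among embryos with the higher Y-linked level, Msn had 19.0 to 31.9 CPM in the 3 Klf5 siRNA embryos and 61.7 to 130 CPM in the 6 scramble embryos. With the lower Y-linked level it had 13.8 to 41.1 CPM in the 3 Klf5 siRNA embryos and 60.6 to 135 CPM in the 4 scramble embryos.

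Radixin (Rdx, ENSMUSG00000032050, chr9:52047173-52088735, plus strand), the remaining ERM gene, had 32.5, 49.2 and 83.8 CPM as lowest, median and highest value in Klf5 siRNA embryos, and 44.3, 70.8 and 114 CPM in scramble embryos. The ranges overlapped over most of their span. Its log2 fold change was -0.37 ± 0.25 and missed the threshold (edgeR, adjusted p = 0.322).

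Slc9a3r1 (ENSMUSG00000020733, chr11:115163341-115181181, plus strand) encodes the scaffold that binds the amino-terminal domain of ERM proteins. It had 8.74, 34.4 and 55.8 CPM as lowest, median and highest value in Klf5 siRNA embryos, against 66.0, 113 and 169 CPM in scramble embryos. Klf5 siRNA embryos 2 and 4 were lowest, at 8.74 and 15.1 CPM, and the groups did not overlap. The means of 32.1 ± 18.1 and 117 ± 32.9 CPM in Klf5 siRNA and scramble embryos gave a log2 fold change of -1.87 ± 0.35, or 3.65-fold lower (edgeR, adjusted p = 0.00119).

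Lcp1 (ENSMUSG00000021998, chr14:75131101-75230842, plus strand) encodes L-plastin, which bundles actin filaments and is best known from leukocytes. It had the largest fall of the 10 genes. Its lowest, median and highest values were 14.9, 51.4 and 119 CPM in Klf5 siRNA embryos, and 181, 286 and 690 CPM in scramble embryos. Scramble embryos 2 and 3, at 630 and 690 CPM, stood above the other scramble embryos, and the groups did not overlap. Lcp1 was thus 5.91-fold lower in the fit, a log2 fold change of -2.56 ± 0.45 (edgeR, adjusted p = 0.000747). Of 10 leukocyte markers 3 were tested and none passed, with summed levels of 6.11 to 20.2 CPM in Klf5 siRNA embryos and 6.63 to 50.0 CPM in scramble embryos, led by Laptm5, and Tyrobp was at 0 in every embryo. Their part in the Lcp1 values was not tested.

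The Par complex genes that fell had fitted folds of 1.71 to 2.81. Pard3 (ENSMUSG00000025812, chr8:127063893-127612286, plus strand) encodes the scaffold Par3. It had 15.3, 30.5 and 33.1 CPM as lowest, median and highest value in Klf5 siRNA embryos, against 28.6, 51.3 and 61.5 CPM in scramble embryos. Only 2 of 6 Klf5 siRNA embryos lay below all scramble embryos, although all 6 lay below the scramble mean. Its fitted log2 fold change was -0.77 ± 0.26 (edgeR, adjusted p = 0.0396). This call was lost when any of 8 single embryos was left out (Klf5 siRNA 3 or 4, or scramble 1, 2, 3, 4, 7 or 8), at adjusted p = 0.0523 to 0.0730. With an offset for transcript length the log2 fold change was -0.38 (adjusted p = 0.23), and with the mitochondrial percent as a covariate it was -0.16 (adjusted p = 0.731).

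Pard6b (ENSMUSG00000044641, chr2:168081004-168101203, plus strand) encodes a Par6 protein, the partner that binds atypical protein kinase C and Cdc42. Its lowest, median and highest values were 3.57, 10.2 and 15.3 CPM in Klf5 siRNA embryos, and 11.0, 16.9 and 49.1 CPM in scramble embryos. Scramble embryos 5 and 6, at 49.1 and 41.7 CPM, were high, and 4 of 6 Klf5 siRNA embryos lay below all scramble embryos. The log2 fold change was -1.22 ± 0.39 (edgeR, adjusted p = 0.0348). This call too was lost when 1 embryo was left out (Klf5 siRNA 2, 3 or 6, or scramble 1, 5 or 6), at adjusted p = 0.0505 to 0.0700, and without both scramble embryos 5 and 6 the log2 fold change was -0.86 (adjusted p = 0.0769).

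The atypical protein kinase C genes had fitted values of opposite sign, and only that of Prkci passed the test. Prkci (ENSMUSG00000037643, chr3:30995747-31052959, plus strand), which encodes the iota form, had 10.2, 12.9 and 18.3 CPM as lowest, median and highest value in Klf5 siRNA embryos, against 22.1, 33.2 and 89.1 CPM in scramble embryos. Scramble embryo 1 supplied the 89.1 CPM, and the groups did not overlap. The log2 fold change was -1.49 ± 0.31, or 2.81-fold lower (edgeR, adjusted p = 0.0023). With the mitochondrial percent as a covariate it was -1.004 and no longer passed (adjusted p = 0.062).

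Prkcz (ENSMUSG00000029053, chr4:155260129-155361361, minus strand) encodes the zeta form and was the only one of the 10 with a positive fitted value in embryos. It had 59.3, 173 and 302 CPM as lowest, median and highest value in Klf5 siRNA embryos, and 76.6, 128 and 178 CPM in scramble embryos. Klf5 siRNA embryos spread on both sides of the scramble range, with embryo 2 below it and embryos 1, 4 and 6 above it. The log2 fold change of 0.45 ± 0.28 missed the threshold (edgeR, adjusted p = 0.275).

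Mpp7 (ENSMUSG00000057440, chr18:7347959-7626866, minus strand) encodes a membrane-associated guanylate kinase scaffold that joins the Discs large and Lin7 proteins at junctions. It had 11.0, 15.4 and 22.8 CPM as lowest, median and highest value in Klf5 siRNA embryos, against 35.2, 48.6 and 56.9 CPM in scramble embryos. The scramble embryos lay close together, with a coefficient of variation of 13.4%, the smallest among the 10 genes in that group, and the groups did not overlap. Mpp7 was 3.01-fold lower, a log2 fold change of -1.59 ± 0.24, with the smallest adjusted p of the 10 genes (edgeR, 0.000201).

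Embryo by embryo, the genes differed in which Klf5 siRNA embryos were lowest. Values here are differences from the scramble mean on the log2 CPM scale. With the Klf5 siRNA embryos in the order of falling Klf5, which is 1, 6, 3, 5, 2 and 4, Klf5 stood at 0.23, -0.67, -1.25, -1.99, -2.06 and -2.52. In that order Slc9a3r1 stood at -1.02, -1.47, -1.34, -1.997, -3.68 and -2.89, so the embryos with less Klf5 were mostly those with less Slc9a3r1. Lcp1 stood at -3.22, -1.39, -3.91, -1.78, -4.38 and -2.17, with no such order, and was lowest in embryos 1, 2 and 3. Ezr was lowest in embryos 4 and 5, at -2.61 and -2.56. The summed CPM of trophectoderm markers, taken up below and led on average by Krt18 and Krt8, also ran mostly with Klf5. In the order of falling Klf5 it was 2689, 2575, 1115, 1164, 251 and 709 CPM. These orders over 6 embryos are a description and were not tested, nor was the part of the markers in them.

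**Figure D2:**
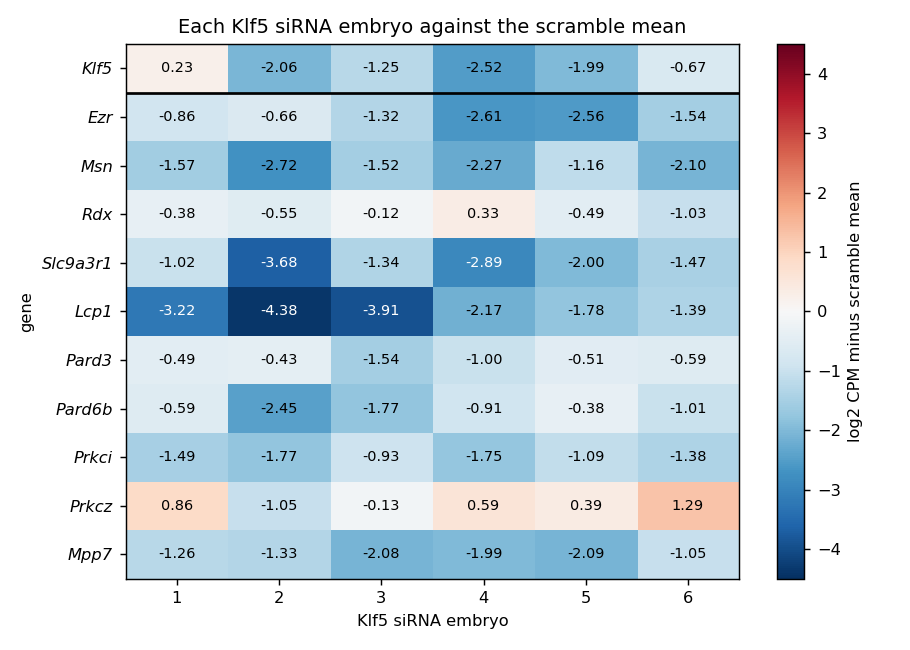
Rows are Klf5 (top) and the 10 genes, columns are Klf5 siRNA embryos 1 to 6, and each cell gives log2 CPM minus the mean log2 CPM of the 10 scramble embryos, blue for lower and red for higher. Ezr, Msn, Slc9a3r1, Lcp1, Pard3, Pard6b, Prkci and Mpp7 are blue in all 6 embryos, including embryo 1, whose Klf5 cell reads 0.23, while Prkcz is red in embryos 1, 4, 5 and 6.

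Since Krüppel-like factors bind GC-rich boxes, the stretch before the start site was read for 9 of the 10 genes, all but Mpp7, in RefSeq (GRCm38.p6). Of the 250 bases before the start, 8 of 9 genes held at least 1 GC box (CCGCCC, either strand), against 32.7% of 32851 promoters. 3 of 9 held a CACCC box (CCACCC, either strand), against 28.1%, and either motif was found in 8 of 9, against 48.8%. The 32851 promoters were taken whether or not the gene was tested here and can hold several starts of a gene. Each of the 9 genes was read at 1 start. The shares among the tested genes alone were not read, so these values do not show an excess over expressed genes. The 2 motifs cannot match at the same bases of a strand, since they differ in 1 letter. Rdx, which did not pass the test, held neither, and Prkcz, which did not pass either, held 2 GC boxes. A match describes the letters of the window and is not a binding site. The 150 bases before the start are shown for Slc9a3r1, Lcp1, Ezr and Msn, which fell with no overlap between groups, with matches to either motif in capitals. The sequences run 5′ to 3′ on the strand of the gene.
Slc9a3r1 (chr11:115163191-115163340, plus strand): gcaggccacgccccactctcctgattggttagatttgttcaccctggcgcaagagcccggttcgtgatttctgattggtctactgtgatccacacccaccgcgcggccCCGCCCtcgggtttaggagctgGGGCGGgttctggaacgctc
Lcp1 (chr14:75130973-75131122, plus strand): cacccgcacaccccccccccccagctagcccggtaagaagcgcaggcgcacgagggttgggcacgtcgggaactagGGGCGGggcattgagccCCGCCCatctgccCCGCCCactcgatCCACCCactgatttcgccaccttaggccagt
Ezr (chr17:6782781-6782930, minus strand): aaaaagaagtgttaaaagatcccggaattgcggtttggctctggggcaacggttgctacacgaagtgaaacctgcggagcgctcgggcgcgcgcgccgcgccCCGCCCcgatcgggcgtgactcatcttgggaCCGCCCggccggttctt
Msn (chrX:96095895-96096044, plus strand): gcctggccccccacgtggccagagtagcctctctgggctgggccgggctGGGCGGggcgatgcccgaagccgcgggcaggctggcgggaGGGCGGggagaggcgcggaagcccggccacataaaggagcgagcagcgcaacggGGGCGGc

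The GC boxes nearest the start lay 2 bases before it in Msn, 12 in Ezr, 15 in Slc9a3r1 and 39 in Lcp1. In Prkci, which also fell with no overlap between groups, the nearest lay 51 bases before the start. It lay 67 bases before the start in Pard3 and 111 in Pard6b. In Prkcz, which did not pass the test, it lay 7 bases before the start, closer than in Ezr, Slc9a3r1, Lcp1 or Prkci.

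The wider machinery was read from lists of other genes. Of 26 other polarity genes 22 were tested in embryos, 2 rose and 1 fell, and their median log2 fold change was -0.14. Among all genes tested in embryos, 12% passed as higher and 7.74% as lower. Cdc42, the small GTPase that activates the Par6 complex, had 1596, 2801 and 3330 CPM as lowest, median and highest value in Klf5 siRNA embryos, against 685, 943 and 1454 CPM in scramble embryos (2.60-fold higher, edgeR, adjusted p = 0.000174). Its groups did not overlap, and it passed under all 29 alternative settings, whereas its partner genes Pard6b and Prkci fell. Crb3, a transmembrane Crumbs protein, had 26.9 to 162 CPM in Klf5 siRNA embryos and 41.2 to 86.0 CPM in scramble embryos (1.78-fold higher, edgeR, adjusted p = 0.0456). It passed under 9 of 29 alternatives and was lost without any one of Klf5 siRNA embryos 1, 3, 5 and 6 or of scramble embryos 1, 2 and 4 to 10 (adjusted p = 0.0503 to 0.15). Llgl1, a basolateral counterpart of the Par complex, averaged 18.4 ± 5.71 CPM in Klf5 siRNA embryos and 31.2 ± 6.29 CPM in scramble embryos (edgeR, adjusted p = 0.0326). It passed under 18 of 29 and was lost without Klf5 siRNA embryo 2, 4 or 6 or scramble embryo 2, 4 or 10 (adjusted p = 0.053 to 0.0726).

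Of 26 other apical cortex genes 22 were tested in embryos, 6 fell and none rose, and their median log2 fold change was -0.43. Among all genes tested, 7.74% passed as lower and 12% as higher. Slk, a kinase that phosphorylates ERM proteins, averaged 13.0 ± 7.05 CPM in Klf5 siRNA embryos and 42.6 ± 14.9 CPM in scramble embryos (3.28-fold lower, edgeR, adjusted p = 0.0026). It was the only one of the 6 whose groups did not overlap. Pdzk1, another PDZ scaffold of microvilli, had 0 to 10.4 CPM in Klf5 siRNA embryos and 10.3 to 49.1 CPM in scramble embryos (edgeR, adjusted p = 0.0271). It passed under 27 of 29 alternatives and was lost without scramble embryos 5 and 6 (adjusted p = 0.0503) and in the 12 embryos whose replicate numbers both groups share (adjusted p = 0.0652). The actin cross-linker genes Actn4 and Actn1 and the minus-end motor gene Myo6 were 2.46-fold to 3.60-fold lower (edgeR, adjusted p = 0.00913 to 0.0159). Without Klf5 siRNA embryos 2 and 4 the calls of Actn4 and Actn1 were lost (adjusted p = 0.0568 and 0.0679). With the mitochondrial percent as a covariate the log2 fold change of Actn1 was -0.43 (adjusted p = 0.645) and that of Myo6 was -0.65 (adjusted p = 0.233), and each passed under 26 of 29 alternatives.

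Markers of the embryo's cell types were set beside all genes tested, of which 12% passed as higher and 7.74% as lower. Of 14 tested trophectoderm markers 9 fell and none rose, and their summed level was 251 to 2689 CPM in Klf5 siRNA embryos and 2459 to 8996 CPM in scramble embryos. Krt18 and Krt8 led the list, with means of 614 and 425 CPM in Klf5 siRNA embryos and 2067 and 1497 CPM in scramble embryos. Scramble embryos 5 and 6, which were also high in Pard6b, had sums of 8303 and 8996 CPM, and every other scramble embryo had at most 4445 CPM. Of 14 tested primitive endoderm markers 2 fell, with sums of 573 to 1222 CPM in Klf5 siRNA embryos and 691 to 1138 CPM in scramble embryos. Of 14 epiblast and naive pluripotency markers 2 rose and 1 fell, with sums of 5350 to 15989 CPM in Klf5 siRNA embryos and 2684 to 7019 CPM in scramble embryos, most of it Dppa3. Of 14 fibroblast markers 2 were tested, 1 rose and 1 fell, with sums of 5.76 to 32.0 CPM in Klf5 siRNA embryos and 30.4 to 67.4 CPM in scramble embryos, and Lum was at 0 in every embryo. The part of these markers in the fall of the apical genes was not tested.

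Fold changes in embryos also ran with transcript length. In 10 classes of equal size by length, the median log2 fold change was 0.88 over the 1230 shortest genes and -0.34 over the 1230 longest. The 10 genes lay in classes 3 and 5 to 9, counted from the shortest, where the medians were 0.09 to -0.29 and 7 to 12.6% of genes passed as lower. With an offset for transcript length 6 of the 10 genes still passed as lower, with Slc9a3r1 at -2.01, Lcp1 at -2.30, Msn at -1.62, Ezr at -1.28, Mpp7 at -1.27 and Prkci at -1.17 on the log2 scale.

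In ESCs 1 of the 10 genes, Slc9a3r1, rose with Klf5, and none of the other 9 passed the test. Over all 15968 genes tested, 2.78% passed in either direction, 1.67% as higher and 1.11% as lower. The median log2 fold change was -0.02 over the 10 genes and 0.00 over all genes tested. In all 10 genes the libraries of the groups did not overlap, 5 higher and 5 lower, but with 2 libraries in each group this held for 56.4% of the genes tested, 28.9% higher and 27.4% lower.

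Slc9a3r1 had 159 and 156 CPM in Klf5 ESCs against 69.6 and 81.4 CPM in GFP ESCs. Both Klf5 libraries lay well above both GFP libraries. The log2 fold change was 1.06 ± 0.12, or 2.08-fold higher (edgeR, adjusted p = 0.0285). Without GFP replicate 1 it was 0.95 with an adjusted p of 0.132, while it passed under the other 12 alternatives. Among the 10 genes, Slc9a3r1 was thus the one that passed in both experiments, lower where Klf5 was lowered and higher where it was raised. The experiments share no samples, and the difference between their effects was not tested.

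**Figure D3:**
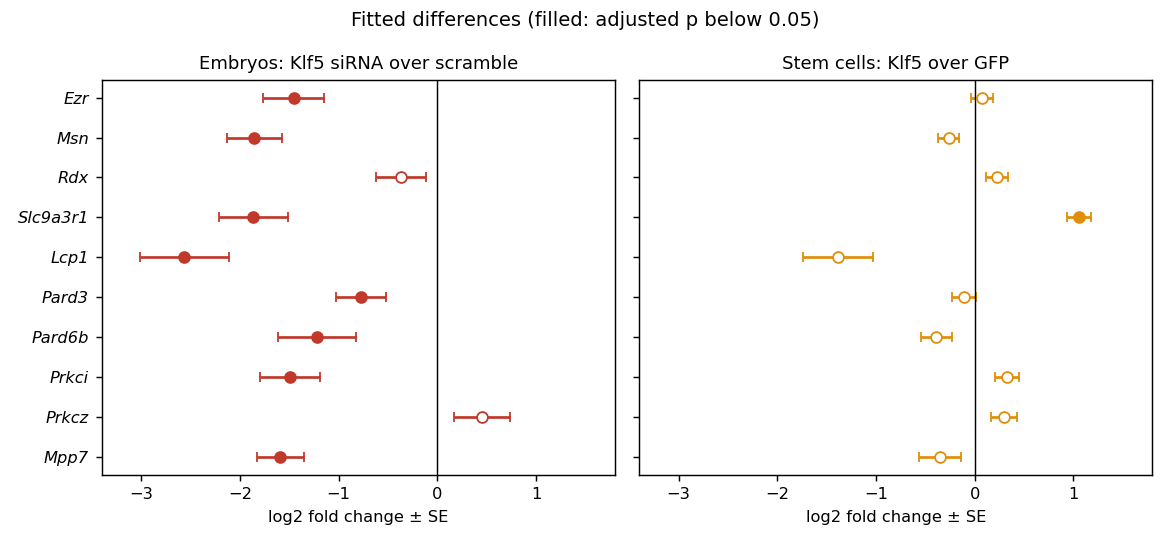
Points give the fitted log2 fold change of each gene with its standard error, on the left for Klf5 siRNA over scramble embryos and on the right for Klf5 over GFP ESCs, filled where the adjusted p was below 0.05. 8 points on the left are filled and lie between -0.77 and -2.56, and the only filled point on the right is Slc9a3r1 at 1.06.

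None of the ERM genes passed the test in ESCs. Ezr had 390 and 388 CPM in Klf5 ESCs and 372 and 367 CPM in GFP ESCs (log2 fold change 0.08 ± 0.11, edgeR, adjusted p = 0.715). Msn had 150 and 152 CPM in Klf5 ESCs and 187 and 176 CPM in GFP ESCs (log2 fold change -0.27 ± 0.11, edgeR, adjusted p = 0.191). Rdx had 68.6 and 72.3 CPM in Klf5 ESCs and 59.3 and 61.1 CPM in GFP ESCs (edgeR, adjusted p = 0.273).

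Lcp1 was low in ESCs, with 22 and 36 counts in Klf5 ESCs and 50 and 77 counts in GFP ESCs. This gave 0.598 and 0.958 CPM in Klf5 ESCs and 1.99 and 2.09 CPM in GFP ESCs, a log2 fold change of -1.38 ± 0.36 that missed the threshold (edgeR, adjusted p = 0.0807). Under the alternatives its adjusted p lay between 0.0549 and 0.325. Mpp7 was also low, at 4.57 and 4.61 CPM in Klf5 ESCs and 6.32 and 5.42 CPM in GFP ESCs (edgeR, adjusted p = 0.355).

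Of the kinase genes, Prkci had 111 and 102 CPM in Klf5 ESCs and 77.9 and 92.0 CPM in GFP ESCs (edgeR, adjusted p = 0.179), and Prkcz had 69.9 and 61.3 CPM in Klf5 ESCs and 49.3 and 57.4 CPM in GFP ESCs (edgeR, adjusted p = 0.239). Pard3 had 42.2 and 44.3 CPM in Klf5 ESCs and 48.7 and 44.9 CPM in GFP ESCs (edgeR, adjusted p = 0.617). Pard6b had 60.8 and 77.3 CPM in Klf5 ESCs and 99.7 and 81.1 CPM in GFP ESCs (edgeR, adjusted p = 0.207).

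**Figure D4:**
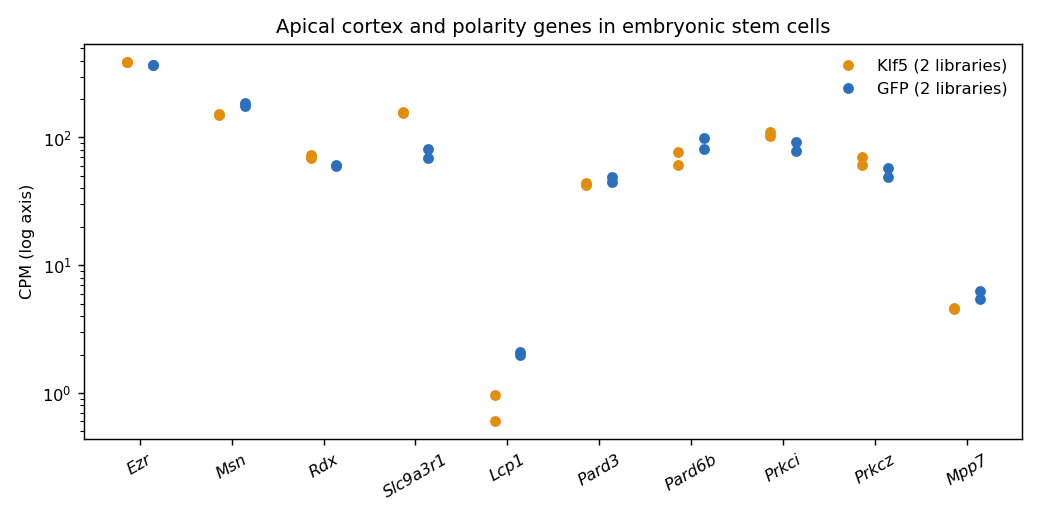
CPM on a log axis for the 10 genes in the 2 Klf5 ESC libraries (left point of each pair) and the 2 GFP ESC libraries (right), 1 point per library. Slc9a3r1 stands apart, with 159 and 156 CPM against 69.6 and 81.4 CPM, and Lcp1 lies lowest, at 0.598 and 0.958 CPM against 1.99 and 2.09 CPM.

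Among the wider lists in ESCs, 24 of 26 other polarity genes were tested, of which 1 rose and 1 fell. Among all genes tested in ESCs, 1.67% passed as higher and 1.11% as lower. Llgl1 rose, with 165.8 ± 14.1 CPM in Klf5 ESCs and 108 ± 5.64 CPM in GFP ESCs (log2 fold change 0.61, edgeR, adjusted p = 0.0451). Crb3 fell, with 59.6 ± 0.412 CPM in Klf5 ESCs and 111 ± 20.8 CPM in GFP ESCs (log2 fold change -0.90, edgeR, adjusted p = 0.0348). Both also passed in embryos with the opposite sign, where Klf5 was lowered and not raised. Llgl1 was thus lower where Klf5 was lowered and higher where it was raised, and Crb3 the reverse. Their embryo calls rested on the libraries named above, and the difference between the experiments was not tested. All 26 other apical cortex genes were tested and 1 rose, the actin nucleator gene Cobl, with 89.5 ± 26.4 CPM in Klf5 ESCs and 39.8 ± 5.46 CPM in GFP ESCs (edgeR, adjusted p = 0.0495). All 3 calls were lost without GFP replicate 1, those of Llgl1 and Cobl also without GFP replicate 2, and those of Llgl1 and Crb3 also without Klf5 replicate 1 (adjusted p = 0.0552 to 0.295). The median log2 fold changes were -0.01 for the polarity list and -0.06 for the cortex list.

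Some cell type markers in ESCs also differed between the groups, where 1.67% of all genes tested passed as higher and 1.11% as lower. Of 15 tested trophectoderm markers 2 fell, with sums of 622 to 1048 CPM in Klf5 ESCs and 1700 to 2924 CPM in GFP ESCs. Of 15 primitive endoderm markers 4 rose, with sums of 2221 to 5670 CPM in Klf5 ESCs and 1657 to 2186 CPM in GFP ESCs. Of 13 tested fibroblast markers 1 rose, with sums of 1597 to 1670 CPM in Klf5 ESCs and 1222 to 1298 CPM in GFP ESCs, a list that MEF feeders also express. Of 7 tested leukocyte markers none passed, with sums of 239 to 261 CPM in Klf5 ESCs and 175 to 217 CPM in GFP ESCs. Of 14 epiblast and naive pluripotency markers 1 rose and 1 fell, with sums of 7100 to 7684 CPM in Klf5 ESCs and 5995 to 6193 CPM in GFP ESCs. Their part in the rise of Slc9a3r1 was not tested.

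Per kb of the longest annotated transcript, the order of levels differed between the experiments, which were made with different kits and are set side by side without a test. In Klf5 siRNA embryos Prkcz was highest at 42.7 ± 20.8 CPM per kb, and Slc9a3r1, Lcp1 and Rdx followed at 16.7 ± 9.39, 15.1 ± 10.9 and 12.2 ± 4.00. In scramble embryos Lcp1 was highest at 89.5 ± 45.1 CPM per kb, followed by Slc9a3r1 at 60.9 ± 17.1, Prkcz at 31.2 ± 8.26 and Msn at 24.8 ± 6.87, with Pard6b lowest at 6.64 ± 3.80. Neighbours in either embryo order overlapped in range in every case. Lcp1 thus stood first in scramble embryos and last in both ESC groups.

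In Klf5 ESCs Ezr was highest at 123 ± 0.345 CPM per kb, followed by Slc9a3r1 at 81.8 ± 0.989 and Msn at 39.4 ± 0.346, and in GFP ESCs by Msn at 47.3 ± 2.11 and Slc9a3r1 at 39.2 ± 4.33 after Ezr at 117 ± 0.916. Slc9a3r1 thus stood above Msn in Klf5 ESCs and below it in GFP ESCs. Rdx and Prkcz overlapped in range in both ESC groups, and Prkci and Pard6b in Klf5 ESCs, while the other neighbours did not. Lcp1 was last at 0.203 ± 0.0663 CPM per kb in Klf5 ESCs and 0.530 ± 0.0180 in GFP ESCs.

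**Figure D5:**
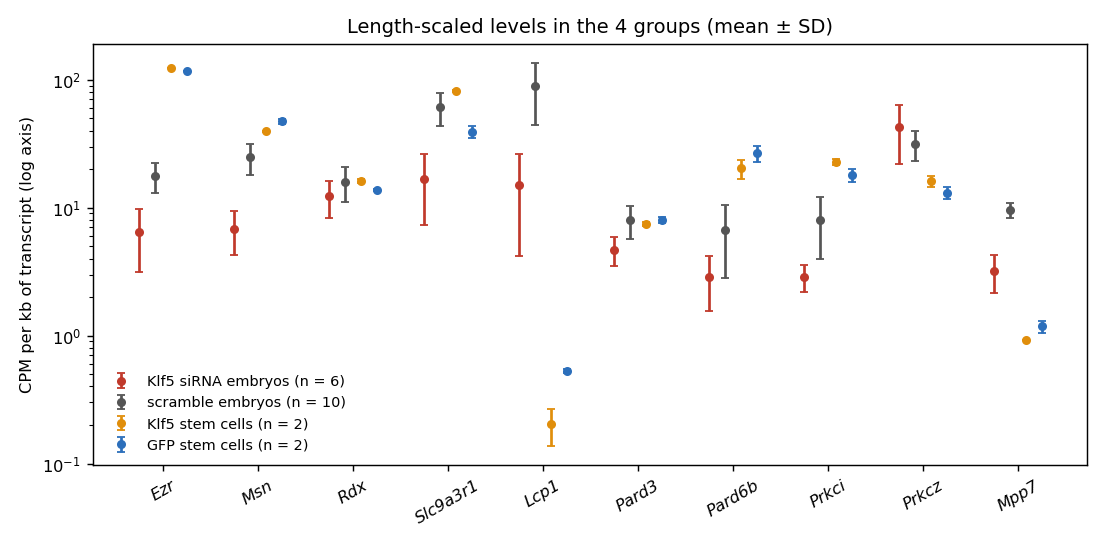
Mean ± SD of CPM per kb of transcript on a log axis, for each gene in Klf5 siRNA embryos, scramble embryos, Klf5 ESCs and GFP ESCs, from left to right. Lcp1 spans the widest range, between 0.203 in Klf5 ESCs and 89.5 in scramble embryos, while Rdx lies between 12.2 and 16.1 in all 4 groups.

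Across the 10 scramble embryos, the genes whose log2 CPM ran most like each of the 8 that fell were taken from 6640 genes with a mean of at least 10 CPM. They are a description over embryos that share their processing and differ in depth and mitochondrial share. Each is among the highest of 6640 values over 10 embryos, so the values are high in part through this choice. The Spearman values of the pairs were 0.77 to 0.96. Ezr ran most like Fancm (Pearson r = 0.83) and Zfp106 (0.82), Msn like Ankrd10 (0.89) and P4hb (0.87), and Slc9a3r1 like Sh3gl1 (0.90) and Nfe2l2 (0.88). Lcp1 ran most like Hddc2 (0.94) and Gucd1 (0.91), and Mpp7 like Mrtfa (0.91) and Mapk8 (0.91). Pard3 ran most like Gnl3l (0.99) and Zfp992 (0.97), Pard6b like Ewsr1 (0.98) and Atp1b3 (0.97), and Prkci like Atf2 (0.97) and Lats2 (0.95). Among the 10 genes themselves values ran from -0.69, between Pard3 and Pard6b, to 0.58, between Rdx and Prkci. The value between Lcp1 and Mpp7 was 0.56. No member of the set was thus among the genes most like another.

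Overlapping genes were few and low. Ezr shares its span with Sytl3 on the opposite strand, which had at most 3.79 CPM in an embryo, and Pard3 and Mpp7 share theirs with processed pseudogenes that had at most 0.517 CPM in any library. Reads shared between the related genes Prkci and Prkcz, or among the ERM genes, would be divided by the estimate that made the counts, and this was not tested.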

How the data were processed

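PolyA RNA was read in 16 single-embryo and 4 ESC libraries. The authors deposited estimated counts (expected counts) per Ensembl gene, and the submitters' processing notes name kallisto 0.46 and mm10. The step between transcript and gene values is not stated there. Per the labels' protocols, embryo cDNA came from the SMARTseq-V4 kit and ESC cDNA from TruSeq v2 reagents. Counts were rounded, at a change of at most 0.000756% of a library total. Each experiment was filtered with filterByExpr (minimum count 10), scaled by TMM and tested with edgeR 4.0.16 (R 4.3.3, robust quasi-likelihood F tests, Benjamini-Hochberg adjustment over all genes tested, threshold 0.05). Both fits were tested on simulated data. CPM use TMM-scaled library sizes, and log2 CPM a prior count of 2. Transcript lengths and positions came from GENCODE M21 (GRCm38). Promoter sequences are RefSeq's on GRCm38.p6.

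The genes and lists were chosen with earlier results of these data known. Named beyond the 10 genes were Klf5, up to 6 called genes of each wider list by smallest p, and for each gene called in embryos the 2 genes with the highest Pearson r. 1 gene that this rule named is not reported here. Alternatives were RLE and upper quartile scaling, DESeq2 1.42.0, limma 3.58.1 voom, no filter, a minimum of 5 CPM and an offset for transcript length (lowess span 0.3). Others were covariates for detected genes and mitochondrial percent, each library left out, and replicate numbers as a block. Klf5 siRNA embryos 2 and 4, and scramble embryos 5 and 6, were also left out as pairs. Counting error alone does not cover amplification, and the embryo libraries have no molecular identifiers given.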

Additional observations from a re-analysis of the deposited data

How the results depend on the processing

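Ezr, Msn, Slc9a3r1, Lcp1 and Mpp7 passed as lower in embryos under all 29 alternatives, Prkci under 28, Pard6b under 17 and Pard3 under 16. The number of the 10 genes called was 6 to 8 in embryos and 0 to 1 in ESCs, with the same ranges when 1 library was left out. The only reversal was embryo Prkcz, at -0.026 on the log2 scale with the mitochondrial percent as a covariate (adjusted p = 0.973), against 0.45. The cause of these changes was not tested.

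Counts for the wider lists moved more. Other polarity genes called in ESCs (2) were 1 with voom and 0 to 2 with 1 library left out, and other apical cortex genes (1) were 4 with DESeq2, 0 with voom, 2 without a filter and 0 to 4 with 1 library left out. In embryos other polarity genes (3) were 5 with DESeq2 and 1 to 5 with 1 library left out, and other apical cortex genes (6) were 3 with the mitochondrial covariate and 5 to 6 with 1 library left out. Over all genes, ESC calls (444) were 1435 with DESeq2, 281 with voom, 870 without a filter, 1 without GFP replicate 1, 169 without GFP replicate 2 and 998 without Klf5 replicate 2. ESC calls thus rest on few libraries.

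The replicate numbers did not pair the samples (correlation of deviations -0.108 in ESCs, -0.117 to 0.108 in embryos). With the replicate block ESC calls were 155 over all genes, 0 for both wider lists and 1 for the 10 genes. A crossed block, chosen after seeing the data, gave 1475, 4 polarity genes, 5 cortex genes and 1. In embryos the block used 12 embryos, without scramble 7 to 10, and gave 902 calls, 1 polarity gene and 6 of the 10 genes. The same 12 embryos without the block gave 1423 calls, 1 polarity gene, 3 cortex genes and 6 of the 10.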
